A study of Mus musculus with 32 samples.

Results

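The 10 genes described here belong to the Wnt signalling pathway: Ctnnb1, Lef1, Tcf7, Tcf7l2, Fzd4, Fzd6, Lrp5, Lrp6, Axin2 and Apcdd1. They were chosen by name from the 38740 gene symbols of the table, with earlier results of these data known, and all 10 have a line in it. The libraries were 4 pools of 10 cells and 28 single cells. All came from the subventricular zone, a neurogenic zone of the mouse forebrain, at postnatal day 21. The labels gave no genotype, strain, sex, treatment, sort or animal, so it is not known whether libraries share an animal. The 28 cells are treated as 1 sample, and cells give no p-value here. Values are FPKM, fragments per kilobase of transcript scaled to the mapped fragments of a library, which are corrected for transcript length and so can be set side by side between genes.

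In canonical Wnt signalling, a secreted ligand binds a Frizzled receptor (here Fzd4 and Fzd6) together with a co-receptor (Lrp5 or Lrp6). Without ligand, a cytoplasmic complex built on axin proteins marks β-catenin, the product of Ctnnb1, for breakdown. With ligand, β-catenin builds up, enters the nucleus and binds the DNA-binding factors of the TCF/LEF family (Lef1, Tcf7 and Tcf7l2), which then switch on target genes. Axin2 is a target that feeds back on the pathway, and Apcdd1 encodes a membrane inhibitor that is itself a target. In the brain the pathway is known for building and keeping the blood-brain barrier in endothelial cells, and for acting on neural stem cells and progenitors.

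A gene was called found in a library at FPKM of at least 1. Pools had 27.05% to 33.2% of all genes found, and single cells had 5.44% to 26.2%. Each cell was described by the marker list with the highest mean log2(FPKM + 1) in it. Endothelial markers led 8 cells (1, 2, 3, 6, 7, 8, 16 and 17), with 9 to 12 of 12 markers found. The other leading lists were astrocyte (cells 11 and 14), ependymal (cells 9, 10 and 15), choroid plexus (cell 5), oligodendrocyte (cells 4, 12 and 13), microglia (cells 18 to 21) and neuroblast (cells 22 to 28). Cell 21 was led by neuroblast markers once low shared values were removed. Pools 2 and 3 were led by endothelial markers and pools 1 and 4 by oligodendrocyte markers, although pool 1 was led by choroid plexus markers when lists were ranked by the share of markers found. The libraries of cells 18 to 22 and of cells 23 to 28 stood apart: within each of these 2 sets, genes that dominate 1 cell recur at a low level in the others. These 11 cells held all microglia-led and neuroblast-led cells, so the cell type of these libraries and the set they belong to cannot be told apart. Ratios are therefore given with and without them. Counts of cells were also taken after putting at 0 each value below 2% of the gene's maximum in that set (the 2% limit), and are given where that changed them. A step of 1 fragment was clear in 19 libraries, cells 1 to 17 and pools 1 and 2, and gave them depths of roughly 6.21 to 20.9, counted in 1000000 fragments each. At that depth an FPKM of 1 on a transcript of 3000 bases stands for about 17.4 to 58.5 fragments.

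The 10 genes fell into 2 broad patterns over the cells. Ctnnb1 was in most cells, while the other 9 were each found in 2 to 11 of 28 cells, and Lef1, Fzd6, Apcdd1 and Tcf7 were found mainly in endothelial-led cells. All 10 genes were found in at least 1 cell, against a background of 48.7% of all genes, and 7 were found in at least 5 cells, against 27.7%. Per length, the mean level over the 28 cells ran from Ctnnb1 (226 FPKM) through Lef1 (33.2), Tcf7l2 (18.2), Fzd6 (12.9) and Apcdd1 (9.25) to Tcf7 (3.05), Axin2 (2.85), Lrp6 (2.76), Fzd4 (2.34) and Lrp5 (0.384). The median over cells was under 1 FPKM for all of these genes but Ctnnb1, so the order below Ctnnb1 rests on the few cells in which each gene was high, and neighbours in it differ by less than the SD between cells (the SD was 318 FPKM for Ctnnb1 and exceeded the mean for all 10).

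**Figure D1:**
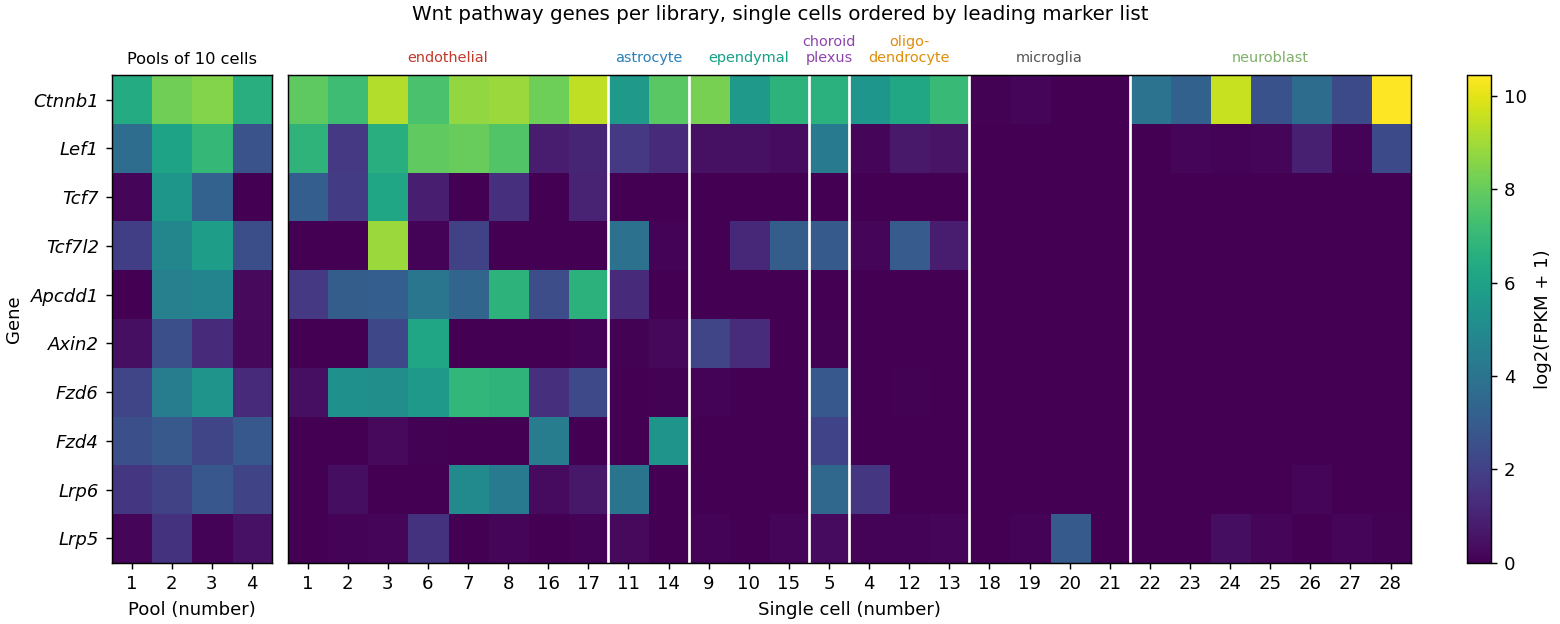
Level of each Wnt pathway gene, as log2(FPKM + 1), in the 4 pools of 10 cells and the 28 single cells, with cells ordered by the marker list that led them. Ctnnb1 was found in 24 of 28 cells, while Lef1, Fzd6, Apcdd1 and Tcf7 were found mostly in the 8 endothelial-led cells and were higher in pools 2 and 3 than in pools 1 and 4.

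Ctnnb1 encodes β-catenin, which both carries the Wnt signal and anchors cadherins at cell junctions. The gene (ENSMUSG00000006932) lies on the plus strand at chr9:120929216-120960507 of GRCm38. It was found in 24 of 28 cells, a share of 85.7% (67.3% to 96.0% by the exact Clopper-Pearson method at 95%, counting error only), including every cell from 1 to 17. In the 8 endothelial-led cells it had 146 to 702 FPKM with a median of 357, and in the other 9 cells outside the library sets 43.9 to 315 FPKM with a median of 102. These ranges overlap: cells 9 and 14 at 315 and 217 FPKM were above some endothelial-led cells. In cells 18 to 21 the gene was at 0.055, 0.145, 0.0096 and 0.025 FPKM, and it was below 1 FPKM in no other library. In cells 22 to 28 it had 14.7, 8.40, 756, 5.23, 11.98, 4.09 and 1396 FPKM, so cells 24 and 28 held the 2 highest values of all cells and the other 5 were far below them. The 2% limit removed 4 of those low values and left 20 cells with the gene. Ctnnb1 overlaps Ulk4, a kinase-like gene on the opposite strand, which was found in 23 cells. The strand setting of the counting is not given in the sources used here, so reads of the shared part cannot be told apart.

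Lef1 encodes a TCF/LEF factor that is also a common readout of Wnt activity, and it was found in 7 of the 8 endothelial-led cells. The gene (ENSMUSG00000027985) lies on the plus strand at chr3:131110471-131224356 of GRCm38. It was found in 11 cells, or 39.3% (21.5% to 59.4%). Endothelial-led cells 1, 3, 6, 7 and 8 had 111, 93.6, 237, 259 and 195 FPKM, while the endothelial-led cells 2, 16 and 17 had 2.34, 0.791 and 1.13 FPKM. The 8 cells thus fell into a high group and a low group, although all 8 carried at least 9 of 12 endothelial markers. Outside them Lef1 was highest in the choroid plexus-led cell 5 at 18.6 FPKM, and it reached 4.09 FPKM in cell 28, 2.35 in cell 11 and 1.38 in cell 14. In cells 18 to 22 it was below 1 FPKM.

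The 300 bases around several RefSeq start sites of these genes (250 before and 50 after, GRCm38.p6) were searched on both strands for the TCF/LEF motif, CTTTGA or CTTTGT, whose reverse complements are TCAAAG and ACAAAG. The table held 12 such windows for 6 of the genes, and 2 windows held the motif, against 31.2% of 32851 promoters of that length. Lef1 and Axin2 are shown because both are classical targets of the pathway, and the internal starts of Lef1 and Tcf7l2 because they are the windows with a match. The Lef1 upstream start (chr3:131110073-131110372, plus strand) held no match. The internal Lef1 start (chr3:131156044-131156343, plus strand), 45823 bases into the gene, held 3 matches, shown in capitals. At least 3 matches occurred in 1.14% of all promoters, a share per promoter, while this window was picked from the 12 for its matches. In human cells an internal LEF1 start is known to give a shorter protein that lacks the part binding β-catenin. The Axin2 window (chr11:108920099-108920398, plus strand) held no match, and the internal Tcf7l2 start (chr19:55895071-55895370, plus strand) held 1.
Lef1 upstream start: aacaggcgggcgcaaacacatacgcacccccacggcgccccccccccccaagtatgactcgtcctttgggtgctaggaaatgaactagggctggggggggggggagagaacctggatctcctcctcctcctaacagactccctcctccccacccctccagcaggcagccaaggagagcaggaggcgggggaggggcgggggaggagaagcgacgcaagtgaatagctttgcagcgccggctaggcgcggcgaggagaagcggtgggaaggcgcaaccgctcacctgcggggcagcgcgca
Lef1 internal start: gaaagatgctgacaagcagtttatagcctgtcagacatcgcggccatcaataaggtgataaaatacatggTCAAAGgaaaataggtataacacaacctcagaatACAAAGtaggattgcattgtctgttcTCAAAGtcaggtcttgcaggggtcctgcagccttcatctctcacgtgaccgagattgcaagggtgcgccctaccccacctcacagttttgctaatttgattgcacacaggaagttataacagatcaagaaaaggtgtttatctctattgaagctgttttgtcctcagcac
Axin2 start: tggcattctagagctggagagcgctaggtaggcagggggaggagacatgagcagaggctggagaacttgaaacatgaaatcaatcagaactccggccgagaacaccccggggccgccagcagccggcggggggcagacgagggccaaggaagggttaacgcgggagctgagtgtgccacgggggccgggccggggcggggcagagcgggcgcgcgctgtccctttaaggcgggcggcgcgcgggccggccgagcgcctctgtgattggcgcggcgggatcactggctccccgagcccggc
Tcf7l2 internal start: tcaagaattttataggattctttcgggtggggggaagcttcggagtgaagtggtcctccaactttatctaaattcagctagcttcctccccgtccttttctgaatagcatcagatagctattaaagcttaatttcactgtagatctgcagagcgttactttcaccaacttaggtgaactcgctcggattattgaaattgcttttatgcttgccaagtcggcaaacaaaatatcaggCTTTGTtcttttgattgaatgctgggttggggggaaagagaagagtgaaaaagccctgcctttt
A match is a stretch of letters and was not tested as a binding site. FPKM per gene sums over all starts, so the use of either Lef1 start was not measured.

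Tcf7 encodes TCF1, a factor best known from T cell development. The gene (ENSMUSG00000000782, chr11:52252371-52283014, minus strand, GRCm38) was found in 5 cells, or 17.9% (6.06% to 36.9%), and all 5 were endothelial-led. Cells 1, 2, 3, 8 and 17 had 7.60, 2.47, 71.8, 1.66 and 1.002 FPKM, cell 6 had 0.849 FPKM, and cells 7 and 16 were listed at 0. Outside the endothelial-led cells, Tcf7 was at most 0.0247 FPKM. The single value of cell 3 made up most of the mean, and cell 17 lay barely above the threshold.

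Tcf7l2 encodes TCF4, a factor with wide use in the brain, and it ran apart from Lef1 and Tcf7. The gene (ENSMUSG00000024985, chr19:55741820-55933654, plus strand, GRCm38) was found in 7 cells, or 25% (10.7% to 44.9%). Of the endothelial-led cells, cell 3 had 467 FPKM and cell 7 had 3.11, and the other 6 had at most 0.0608. It was found in 5 of the other 9 cells outside the sets, at 14.5 FPKM in cell 11, 7.41 in cell 15, 7.03 in cell 12, 6.74 in cell 5 and 1.26 in cell 10. Those cells were led by astrocyte, ependymal, oligodendrocyte, choroid plexus and ependymal markers in that order, so Tcf7l2 was spread thinly over cell types, with 1 endothelial-led cell far above all others. It was below 1 FPKM in all 11 cells of the library sets.

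Fzd6, a Frizzled receptor known for tissue polarity as well as for Wnt signalling, was the receptor most tied to endothelial-led cells. The gene (ENSMUSG00000022297, chr15:39006034-39038188, plus strand, GRCm38) was found in 8 cells, or 28.6% (13.2% to 48.7%). Cells 2, 3, 6, 7 and 8 had 36.9, 34.4, 47.7, 121 and 109 FPKM, and cells 16 and 17 had 1.76 and 3.95. Cell 1, also endothelial-led, had 0.350 FPKM. The only cell with the gene outside them was the choroid plexus-led cell 5, at 6.26 FPKM, and no cell of the library sets had it.

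Fzd4, the receptor for norrin in vessels of the retina and brain, did not follow the endothelial marker list in these cells. The gene (ENSMUSG00000049791, chr7:89404355-89413134, plus strand, GRCm38) was found in 3 cells, or 10.7% (2.27% to 28.2%). It had 41.5 FPKM in the astrocyte-led cell 14, 20.6 in the endothelial-led cell 16 and 3.23 in the choroid plexus-led cell 5. The other 7 endothelial-led cells were below 1 FPKM. Pools 1 to 4 had 4.88, 6.54, 3.49 and 6.28 FPKM, so the gene was found in all 4 pools and it varied less over the pools than the other 9 genes did (SD of its log2 ratio to the cells 0.35).

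The co-receptors Lrp5 and Lrp6, which pair with Frizzled receptors at the membrane, were low. Lrp6 (ENSMUSG00000030201, chr6:134446476-134566965, minus strand, GRCm38) was found in 5 cells, or 17.9% (6.06% to 36.9%), at 29.9 FPKM in cell 7, 18.3 in cell 8, 15.3 in cell 11, 10.3 in cell 5 and 2.11 in cell 4. Only cells 7 and 8 of these were endothelial-led. Lrp5 (ENSMUSG00000024913, chr19:3584828-3686564, minus strand, GRCm38) was found in 2 cells, or 7.14% (0.877% to 23.5%), at 6.86 FPKM in the microglia-led cell 20 and 1.86 FPKM in the endothelial-led cell 6. No cell had both co-receptors, for which the exact interval reaches a share of 12.3%, while the floor of 3 cells is 10.7%. Of the 8 endothelial-led cells, 3 had either of them.

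Axin2, the feedback inhibitor that serves as a general reporter of Wnt activity, was found in few cells. The gene (ENSMUSG00000000142, chr11:108920349-108950783, plus strand, GRCm38) was found in 4 cells, or 14.3% (4.03% to 32.7%). It had 70.6 FPKM in cell 6 and 3.85 in cell 3, both endothelial-led, and 3.55 and 1.501 in the ependymal-led cells 9 and 10. In 5 of the other 6 endothelial-led cells Axin2 was listed at 0, and in cell 17 it had 0.0646 FPKM.

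Apcdd1 was found, like Ctnnb1, in all 8 endothelial-led cells. It encodes a membrane inhibitor of Wnt signalling that is known to act in vessels of the retina and brain. The gene (ENSMUSG00000071847, chr18:62922231-62961179, plus strand, GRCm38) was found in 9 cells, or 32.1% (15.9% to 52.4%). The endothelial-led cells had 2.31 to 107 FPKM with a median of 8.66, and the ninth was the astrocyte-led cell 11 at 1.35 FPKM. The ranges did not overlap: every endothelial-led cell was above every other cell, which held for 1 of the 10 genes, against 0.239% of genes found in a cell. Cells 8 and 17, at 107 and 103 FPKM, were well above the other 6, which had at most 16.2.

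**Figure D2:**
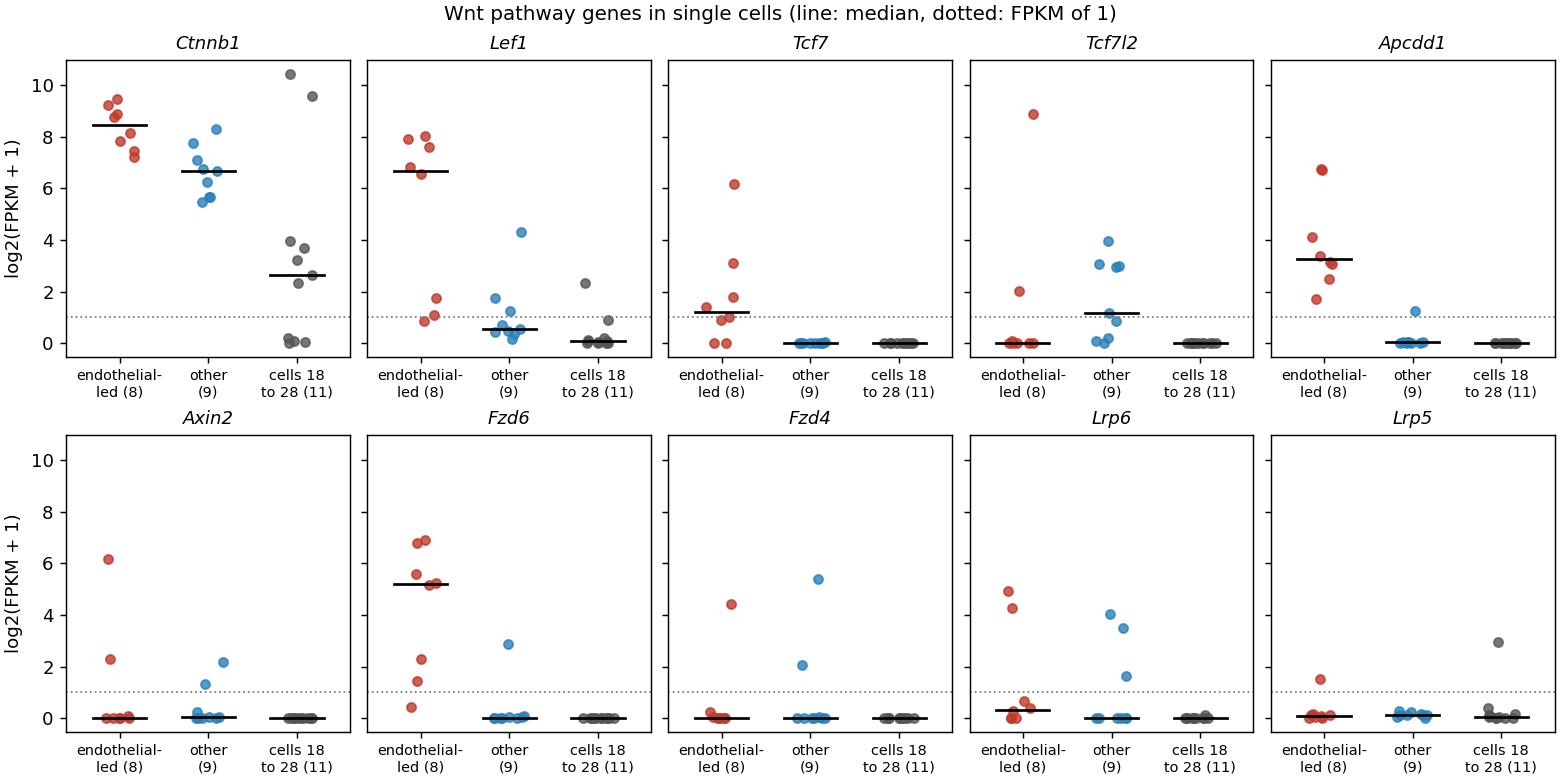
Level of each gene, as log2(FPKM + 1), in the 8 endothelial-led cells, the 9 other cells outside the library sets and the 11 cells of the sets (cells 18 to 28). Each point is 1 cell and each bar a median. Apcdd1 separated the endothelial-led cells from all others, and Lef1 and Fzd6 were high in 5 of these 8 cells each.

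Set side by side, the endothelial-led cells held more of the pathway genes than the others. They had 4 to 7 of the 10 genes found (median 5.5), or 43 of 80 pairs of gene and cell (53.8%), although they had a median of only 13.9% of all genes found. The other 9 cells outside the sets had 1 to 6 genes (median 2), or 26 of 90 pairs (28.9%), at a median of 17.97% of all genes found. The 11 cells of the sets had 0 to 2 genes (median 1), or 9 of 110 pairs (8.18%), at a median of 8.95% of all genes. In them only Ctnnb1, Lef1 and Lrp5 were found in at least 1 cell, 3 of 10 genes, against 55.9% of the genes found in at least 1 of the 28 cells. Tcf7, Tcf7l2, Fzd4, Fzd6, Axin2 and Apcdd1 were listed at 0 in all 11. Cell 5, with the most genes found of all cells (26.2%), also had 6 of the 10.

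**Figure D3:**
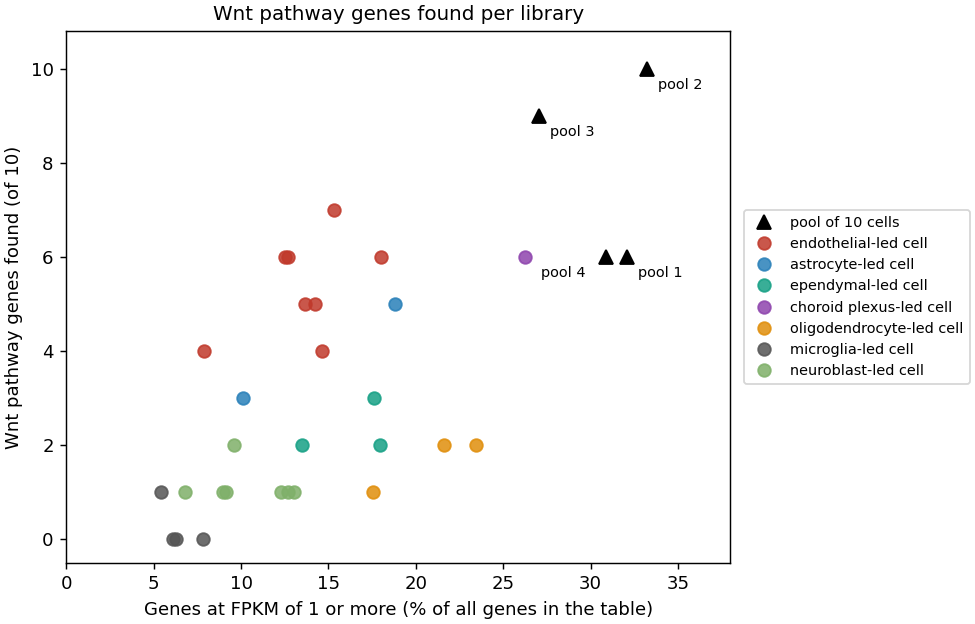
Number of the 10 Wnt pathway genes found in each library against the share of all genes found there. Pools 2 and 3 had 10 and 9 genes, pools 1 and 4 had 6 each, and endothelial-led cells had 4 to 7 at 7.90% to 18.02% of all genes.

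The ratio of mean levels, log2((mean FPKM of endothelial-led cells + 1)/(mean FPKM of the 20 other cells + 1)), was taken for each gene. It was at least 1 for 8 of the 10 genes, against 10.5% of all genes (21.5% of those found in a cell), and at most -1 for none, against 17.2%. Its median was 3.29 over the 10 genes and -0.30 over all genes found in a cell. It was 5.51 for Lef1 (means of 113 and 1.497 FPKM), 5.10 for Fzd6 (44.3 and 0.322), 4.95 for Apcdd1 (32.2 and 0.0722) and 4.37 for Tcf7l2 (58.8 and 1.90). These 4 of 10 genes were at or above 4, as were 1.44% of all genes. Tcf7 had 3.54, Axin2 3.03, Lrp6 1.58, Ctnnb1 1.20, Fzd4 0.16 and Lrp5 -0.15. The scale understates changes of low genes, and no test was made because the cells are not replicates. The 10 genes were chosen with earlier results of these data known. The shares of all genes are thus a background and not a test of an independent list.

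Against only the 9 other cells outside the library sets, 7 of 10 genes were at least 1, against 9.66% of all genes, and the median was 3.11. Lef1 then had 4.93, Apcdd1 4.84, Fzd6 4.72, Tcf7 3.54, Tcf7l2 3.52, Axin2 2.70 and Ctnnb1 1.63, while Lrp6 had 0.81, Lrp5 0.22 and Fzd4 -0.73. Several of the ratios against the 20 other cells rest on 1 cell, and the values in the rest of this paragraph are of that comparison. Without cell 3, Tcf7l2 had -0.996 and Tcf7 had 1.55. Without cell 6 Axin2 had 0.30 in place of 3.03, and without cell 7 Lrp6 had 0.66 in place of 1.58. Fzd4 had 1.62 without cell 14 and -1.65 without cell 16. Lef1 had 6.15 without cell 5, and Ctnnb1 1.92 without cell 28. Lef1, Fzd6 and Apcdd1 stayed at 4.39 or above with any 1 cell left out. With every library scaled to the same upper quartile, Ctnnb1 turned to -0.95 while the median of found genes moved to -0.92. By means of log2 values, 5 of 10 genes (Ctnnb1, Lef1, Tcf7, Fzd6 and Apcdd1) were at least 1, against 8.68% of all genes, and with the same upper quartile 7 of 10 were, all but Ctnnb1, Fzd4 and Lrp5, against 7.13%.

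Markers of other cell types in the endothelial-led cells were measured beside these results. Their summed endothelial markers were 7011 to 31677 FPKM, against 2.14 to 499 FPKM in the other 9 cells and 0.0314 to 14.5 FPKM in the sets. Mural cell markers were 1 to 2 of 10, summing to 2.95 to 9.47 FPKM against 2.08 to 976 FPKM in the other 9 cells. Of these markers, Kcnj8, Myh11, Anpep and Higd1b were at 0 in every single cell, so they do not set the endothelial-led cells apart. Microglial markers were 0 to 9 of 12, summing to 0.484 to 2118 FPKM against 0.0159 to 158 FPKM in the other 9 cells. The 9 were in cell 3, the cell with the highest Tcf7 and Tcf7l2. Oligodendrocyte markers were 1 to 6 of 11, summing to 5.74 to 529 FPKM against 13.4 to 28457 FPKM in the other 9 cells. The 6 were in cell 6, the cell with the highest Axin2. Neural stem cell markers were 1 to 3 of 11, summing to 128 to 534 FPKM against 0.156 to 1191 FPKM. Neuroblast and choroid plexus markers summed to at most 673 and 524 FPKM, and astrocyte and ependymal markers to at most 50.7 and 20.3 FPKM. The part of these markers in the Wnt gene levels was not tested.

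Genes found together in single cells followed the same lines. Lef1 and Apcdd1 were found together in 8 cells, of which 7 were endothelial-led, and Lef1 and Fzd6 in 7 cells, of which 6 were. Fzd6 and Apcdd1 shared 7 cells and Tcf7 shared 5 cells with both Lef1 and Apcdd1, all endothelial-led. Of 45 pairs of genes, 21 were found together in at least 3 cells. These include Ctnnb1, found in 24 of 28 cells, with each other gene but Lrp5. No share over pairs of all genes was taken, so this count does not show joint expression. Over the 28 cells, Spearman's rho was 0.91 between Fzd6 and Apcdd1, 0.83 between Lef1 and Fzd6 and 0.79 between Lef1 and Apcdd1. Over the 17 cells outside the sets these were 0.84, 0.85 and 0.79. Tcf7l2 ran from 0.047 to 0.39 with the other 6 genes found in at least 5 cells over the 28 cells, and from -0.43 to -0.07 over the 17, so the sign turned with the cells used. These values describe libraries that differ in depth and in set.

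Among 7590 protein-coding genes found in at least 5 cells, the 3 with the highest Spearman correlation over the 28 cells were taken for each of the 7 pathway genes found in at least 5 cells. For Fzd6 they were Slco1c1 (0.93, and 0.80 over the 17 cells), Slco1a4 (0.92 and 0.83) and Itm2a (0.92 and 0.86). Slco1c1 and Slco1a4 encode transporters of brain vessels, and Slco1a4 and Itm2a are in the endothelial list itself. For Apcdd1 they were Tgfb2, Akap12 and Fzd6 (0.91 each, and 0.78, 0.82 and 0.84). For Lef1 they were Epas1, a hypoxia-inducible factor subunit (0.87 and 0.71), Slc22a8, an organic anion transporter (0.87 and 0.63), and Ceacam1 (0.86 and 0.72). For Tcf7 they were Palmd (0.85 and 0.78), the proton-sensing receptor Gpr4 (0.84 in both) and Gm20532 (0.83 and 0.80). For Tcf7l2 they were Mpc2 (0.87 and 0.60), a subunit of the mitochondrial pyruvate carrier, Fam162a (0.87 and 0.74) and Acaa1b (0.84 and 0.75). For Lrp6 they were Pdgfd (0.82 and 0.68), Stx3 (0.81 and 0.64) and Blvrb (0.79 and 0.71). For Ctnnb1 they were Rps28 (0.88 and 0.62), the overlapping Ulk4 (0.86 and 0.53) and Clic5 (0.86 and 0.75). Of these genes, those nearest to Fzd6 were the only ones to include members of the endothelial list.

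The pools of 10 cells showed the pathway genes unevenly. Ctnnb1, Lef1, Tcf7l2, Fzd4, Fzd6 and Lrp6 were found in all 4 pools, 6 of 10 genes, against 18.1% of all genes and 35.5% of those found in any library. Pool 2 had all 10 genes and pool 3 had all but Lrp5, while pools 1 and 4 each had the same 6. In pools 1 to 4, Lef1 had 12.4, 65.8, 122 and 5.44 FPKM, Apcdd1 had 0, 22.3, 25.5 and 0.188, and Fzd6 had 3.58, 20.7, 41.3 and 1.45. Tcf7 had 0.107, 45.2, 8.67 and 0.0233 FPKM, Tcf7l2 had 2.80, 26.9, 55.0 and 4.75, and Ctnnb1 had 84.3, 287, 363 and 92.3. For 7 of the 10 genes, the 6 just given and Axin2 (0.329, 4.93, 1.34 and 0.184 FPKM), both of pools 2 and 3 were above both of pools 1 and 4, against 17.4% of genes found in a pool. Pools 2 and 3 were also the pools led by endothelial markers, which summed to 29.8, 7401, 9331 and 73.2 FPKM in pools 1 to 4. Choroid plexus markers split the other way, at 35995 and 20615 FPKM in pools 1 and 4 (9 of 9 markers each) against 39.7 and 104 FPKM in pools 2 and 3, and oligodendrocyte markers were at 15253, 7474, 189 and 21628 FPKM in pools 1 to 4. The part of these markers in the pool differences was not tested. In a pool, fewer cells of a type and less RNA per cell cannot be told apart. Lrp6 had 2.14, 3.01, 6.24 and 3.39 FPKM and Lrp5 0.119, 1.90, 0.0662 and 0.444, with no such split.

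In the mean of the pools against the mean of the cells, most of the 10 genes differed little. The pools averaged 206 ± 140 FPKM of Ctnnb1 and 51.4 ± 54.1 FPKM of Lef1 (SD, n = 4), against cell means of 226 and 33.2. The log2 ratio of pools over cells was at least 1 for Tcf7 alone, 1 of 10 genes, against 6.57% of all genes, and at most -1 for none, against 7.1%. These counts moved with the setting. By means of log2 values 8 genes were at least 1 (all but Axin2 and Lrp5), against 24.8% of all genes, where the median of found genes was 0.95. With the same upper quartile in every library, Tcf7 and Tcf7l2 were at least 1, against 8.43% of all genes, and Ctnnb1 (-1.18) and Lrp5 (-1.02) at most -1, against 14.4%. As deposited, Tcf7 had 1.84 (SD over pools 2.65), which was -0.04 without pool 2 and 3.27 without cell 3. Fzd4 had 0.91 (SD 0.35) and was the only one of the 10 with all 4 pools above the cell mean, as were 3.81% of genes found in any library. Lef1 had 0.61 (1.98), Fzd6 0.35 (1.91), Apcdd1 0.34 (2.61), Lrp6 0.32 (0.51), Tcf7l2 0.29 (1.84), Lrp5 0.24 (0.67), Ctnnb1 -0.13 (1.08) and Axin2 -0.51 (1.06), all within 1 SD over the pools. The median of the 10 genes was 0.33, against 0.064 for found genes, and it was -0.26 without pool 3, 0.074 without pool 2 and -0.23 against the 17 cells outside the sets. Per pool this median was -1.47, 0.81, 1.10 and -1.72 in pools 1 to 4, so the pools differed among themselves more than their mean differed from the cells.

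**Figure D4:**
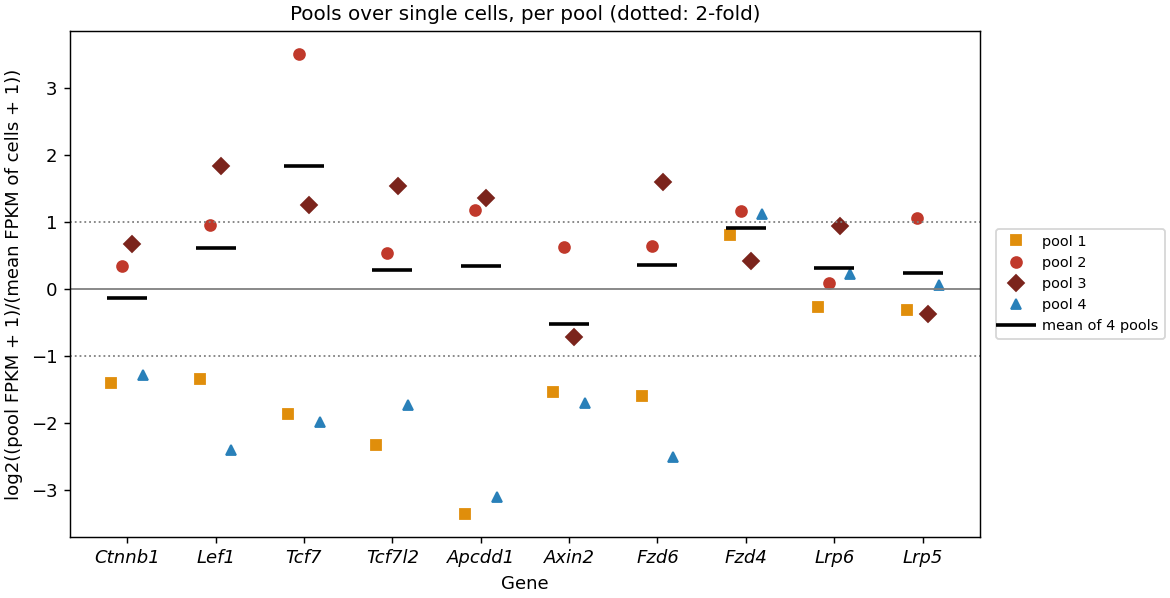
Log2 ratio of each pool to the mean of the 28 single cells, per gene, with (FPKM + 1) on both sides and the ratio of the mean of the 4 pools as a bar. For 7 genes pools 2 and 3 lay above pools 1 and 4, and Fzd4 lay above the cell mean in all 4 pools.

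The rest of the pathway was read from a list of 103 other genes in 7 roles. Of these, 74 were found in at least 1 cell and 27 in no library. Of all 38740 genes, 48.7% were found in at least 1 cell and 19783 in at least 1 library, the background for each role below. Ligands were scarce: of 24 Wnt, norrin and R-spondin genes, 6 were found in a cell, against 48.7% of all genes. The 18 found in no library were Wnt1, Wnt2, Wnt2b, Wnt3a, Wnt5b, Wnt6, Wnt8a, Wnt8b, Wnt9a, Wnt9b, Wnt10a, Wnt10b, Wnt11, Wnt16 and Rspo1 to Rspo4. Wnt4 was found in 10 cells, with its highest value of 122 FPKM in the ependymal-led cell 15. Wnt7a, a ligand of the blood-brain barrier, was found in cells 11 and 18 to 22, with 985 FPKM in cell 22, and the 2% limit left 2 cells. It had 20.2 FPKM in pool 4 and at most 0.0204 FPKM in the other pools. Its ratio of pools over cells was -2.81, but -0.28 without cell 22, -5.39 without pool 4 and -0.58 against the 17 cells outside the sets. Ndp, which encodes norrin, the ligand of Fzd4, was found in cells 4, 11 and 12, with 383 FPKM in the astrocyte-led cell 11. No endothelial-led cell had Wnt7a or Ndp, but Wnt4 was found in the endothelial-led cells 6 and 8, at 3.81 and 1.12 FPKM. The other ligands found in a cell, added after their values were seen, were Wnt3, Wnt5a and Wnt7b. Wnt5a had 57.3 FPKM in the endothelial-led cell 1, and Wnt3 and Wnt7b were found in no endothelial-led cell.

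Of 17 further receptors and co-receptors 16 were found in a cell, and Fzd5 was found in no library. Ryk, an atypical receptor, was found in 7 cells, of which 2 were endothelial-led and 1 of these, cell 8, had the highest value (141 FPKM). Fzd2 was found in 6 cells, none of them endothelial-led. Tspan12, the partner of Fzd4 in norrin signalling, was found in cells 3, 4, 7, 8, 11 and 16, so it shared only cell 16 with Fzd4. Of 17 inhibitors 11 were found in a cell, led by Kremen1 and Znrf3 (7 cells each) and Dkk3 (5 cells, none endothelial-led). Dkk4, Sfrp2, Sfrp4, Wif1 and Sost were found in no library. Of the 17 inhibitors, 2 had a ratio of endothelial-led over the 20 other cells of at least 1 and 6 of at most -1. Of the 17 receptors and co-receptors, 3 and 5 did, against 10.5% and 17.2% of all genes. Against the 9 other cells outside the sets, the counts were 1 and 6 for inhibitors and 3 and 7 for receptors, against 9.66% and 17%. Notum, Gpr124 and Reck were singled out after their values were seen. Notum, a secreted enzyme that inactivates Wnt ligands, was found only in cells 3, 6, 7 and 17, all endothelial-led, at 153, 98.4, 5.54 and 38.7 FPKM, and in pools 1 to 4 it had 0, 17.8, 24.01 and 0 FPKM. Gpr124, a co-activator of Wnt7 signals, was found in 4 cells, all endothelial-led (2, 6, 7 and 17), and its partner Reck in 6, of which 1 was.

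All 12 cytoplasmic genes were found in a cell. None had a ratio of endothelial-led over the 20 other cells of at least 1, against 10.5% of all genes and 21.5% of those found in a cell. At most -1 were 7 (median -1.76), against 17.2% of all genes. Against the 9 other cells outside the sets, 6 were at most -1 (median -1.11), against 17% of all genes. Genes at most -1 numbered 6665 and 6603 in these 2 comparisons, beside 18856 genes found in a cell. Their share among found genes is thus larger than 17.2% and 17%. Csnk1e (26 cells, 21 under the 2% limit), Csnk1a1 (20 cells, 18 under it) and Dvl2 (17 cells, 13 under it) were the most widespread; they encode casein kinases and a Dishevelled protein. Dvl2 and Gsk3a, a kinase of the destruction complex found in 4 cells (2 under the limit), had pool over cell ratios of -2.39 and -2.83, which rested on cells of the library sets. Dvl2 had -1.31 without cell 27 and Gsk3a -0.82 without cell 18, and against the 17 cells outside the sets they had 0.14 and 0.58. Of 12 nuclear partners 11 were found in a cell, led by the corepressor genes Aes (22 cells, 19 under the limit) and Tle3 (13 cells, 11 under it) and by Chd8 (9 cells). The co-activator gene Bcl9 was found in 7 cells (5 under the limit), none endothelial-led, and had -2.02 in pools over cells, which was -1.06 without cell 25 and -0.43 against the 17 cells outside the sets.

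Feedback and target genes were the role in which most genes were higher in endothelial-led cells: 8 of 14 had a ratio of at least 1 and 2 of at most -1, against 10.5% and 17.2% of all genes. The median was 2.13, or 1.69 against the 9 other cells outside the sets. Over all 103 genes, of which 74 were found in a cell, 19 were at least 1 and 28 at most -1. Against the 9 cells 17 were at least 1 and 30 at most -1, beside 9.66% and 17% of all genes. Among genes found in a cell the shares are larger, at 21.5% for at least 1 against the 20 cells. Those at least 1 include Cdh5, which is in the endothelial marker list used to group the cells. The target list held barrier genes known to depend on Wnt signalling in brain vessels, so it is not independent of the endothelial markers. Slc2a1, the glucose transporter of the barrier, was found in all of cells 1 to 17 and in no cell of the sets, with a ratio of 4.42 against the 20 other cells and 3.28 against the 9 outside the sets. Mfsd2a, a lipid transporter of the barrier, was found in 8 of 8 endothelial-led cells and 3 others, with 5.37 and 4.29. These were 5.23 for Slc2a1 without cell 14 and 7.17 for Mfsd2a without cell 11, against the rest of the 20. Nkd1, a feedback inhibitor, was found in 8 of 8 endothelial-led cells and 8 others, or 14 cells in all under the limit. Its ratio was 0.36 against the 20 other cells, 2.52 without cell 28, which had 638 FPKM, and 1.57 against the 9 outside the sets. Plvap, a marker of leaky vessels, and the target gene Sp5 were found in no library. Chosen after their values were seen, the factors Foxf2, Sox17 and Foxq1 were found in 7, 5 and 4 endothelial-led cells and in 1, 0 and 0 others. Of 7 cadherin complex genes, Jup was found in 18 cells, Ctnna1 in 16 and Cdh2 in 15 (1 endothelial-led, 13 under the limit), and Cdh1 in no library.

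**Figure D5:**
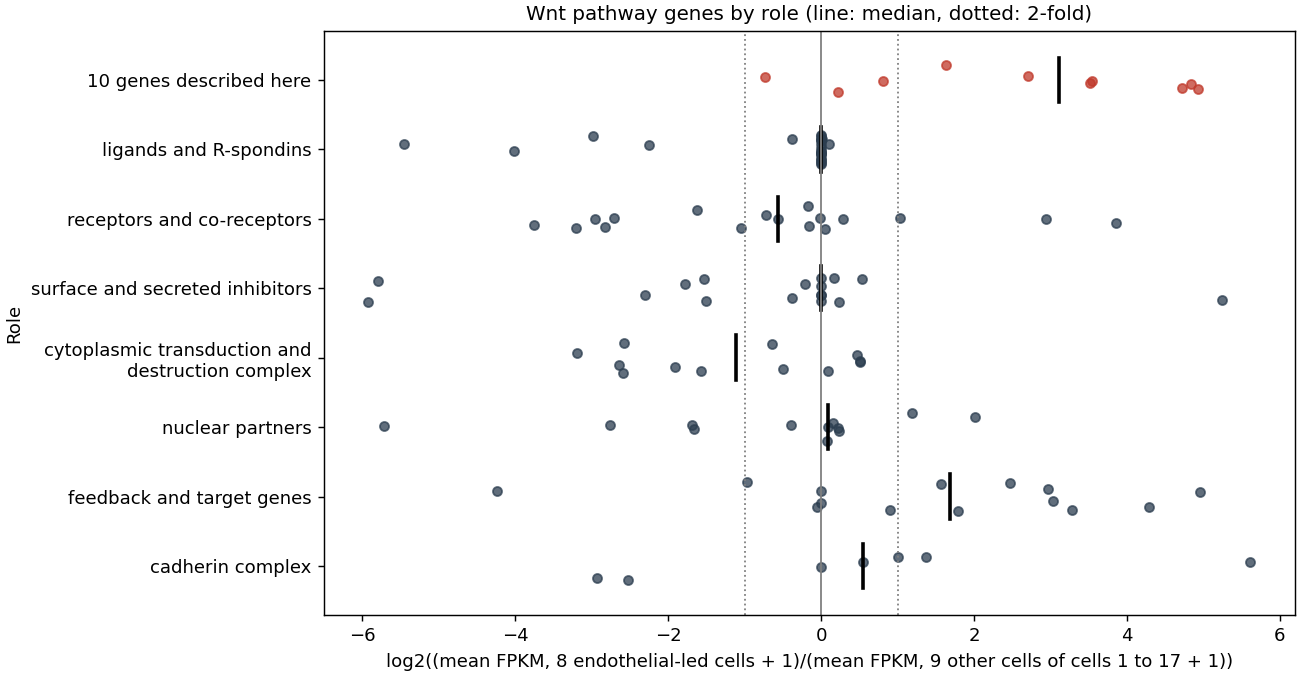
Log2 ratio of endothelial-led cells over the 9 other cells outside the library sets, for the 10 genes described here and for the 103 other pathway genes by role, with 1 point per gene and a bar at each median. The medians were 3.11 for the 10 genes, 1.69 for feedback and target genes and -1.11 for cytoplasmic genes. Cdh5, in the cadherin complex, is also in the endothelial marker list used to group the cells.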

How the data were processed

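RNA of 4 pools of 10 cells and 28 single cells was sequenced with single-cell protocols, per the labels. Per the submitters' processing notes, the tools were TopHat 1.41 and Cufflinks 2.02 and the build mm9; the deposited table gives FPKM per gene. Its loci are those of GRCm38, not mm9: 96.0% of its 39011 gene IDs are in GENCODE M21, and 99.7% of those loci overlap the GRCm38 gene, so positions are from that annotation. Neither read layout nor strand setting is given in the sources used here. An exact 0 can be a failed estimate.

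Lines of one symbol were summed, after 27 symbols that had been turned into dates were restored from the gene ID. No 2 libraries held identical values. Ratios are log2((mean FPKM + 1)/(mean FPKM + 1)). Depth was estimated from steps in FPKM times length among 2342 genes of 1 exon, with an assumed fragment of 200 bases, and is approximate. Libraries were joined into a set by genes that reached 500 FPKM in a single cell and stayed below 5% of it elsewhere, when a mean of 80% or more of them were above 0 in the other library. Shares carry exact Clopper-Pearson 95% intervals. No doublet caller was run. No test between cells or between pools and cells was made.

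The 10 genes and all lists were chosen with earlier results of these data known. Named genes were the 10; per role of the wider list the 3 found in most cells, those found in no library and those past 4-fold in pools over cells with all 4 pools on one side; and the 3 genes most like each of the 10. The computations (Python 3.11.15, pandas 2.3.3, SciPy 1.17.1) were tested on simulated data. Other thresholds, pseudocounts, scalings, the 2% limit, the cells outside the sets and leaving out libraries were tried. Promoter sequences are from RefSeq, GRCm38.p6.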

Additional observations from a re-analysis of the deposited data

Results flagged for a closer look

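In 5 of 33 pathway genes examined over the 4 pools, 1 pool lay far from the other 3. Chance flags about 1 in 20 such groups of normally spread values. FPKM of pools are skewed and hold values at 0, so that rate need not hold here. Other pathway genes were not examined in this way, and among them Fzd9 had 0, 0, 0 and 11.1 FPKM in pools 1 to 4. None of the 10 genes described above was among them. Pool 4 stood apart for the ligands Wnt4 (25.9 FPKM), Wnt7a (20.2 FPKM) and Ndp (50.1 FPKM) and for the receptor Fzd2 (10.7 FPKM). Pool 3 stood apart for the receptor partner Tspan12 (108 FPKM).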

How the results depend on the processing

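No paired analysis was possible because the numbers of cells and pools are only names and no result came from a test. Of 280 pairs of gene and cell 78 were found, and 104, 56 and 45 at thresholds of 0.1, 5 and 10 FPKM, and 74 under the 2% limit. Of the 45 pairs of genes, 21 shared at least 3 cells, and 10 and 6 did at thresholds of 5 and 10 FPKM. The number of genes with a ratio of endothelial-led over other cells of at least 1 was 8, and 5 by means of log2 values (Ctnnb1, Lef1, Tcf7, Fzd6 and Apcdd1, against 8.68% of all genes). It ranged over 7 to 9 with any 1 cell left out, with 9 without cell 14. The ratio turned to -0.95 for Ctnnb1 with the same upper quartile in every library, and to -0.996 for Tcf7l2 without cell 3 (up to 4.74 without another cell). The ratio of pools over cells turned to -0.042 for Tcf7 without pool 2 (up to 2.23 without another pool). The median of that ratio over the 10 genes, 0.33, ranged over -0.26 (without pool 3) to 0.66 with any 1 pool left out. It was -0.23 against the 17 cells outside the sets and 1.66 by means of log2 values, where found genes had 0.95. The cause of these changes was not tested, beyond what leaving out a library shows. Ratios of the wider list without single libraries were added after seeing the data. The cells are 1 sample with no animal named, and depth is known only roughly. A gene below 1 FPKM in a cell was therefore called not found at this threshold, which does not mean that it was absent.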
